A study of Mus musculus with 6 samples.

Results

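Collagens are the triple-helical proteins that give tissues their fibres and their basement membranes. The genes examined here are the 38 whose only gene symbol in the platform's probe-to-gene table has the form Col, a number, a and a number, such as Col1a1, out of 16139 single symbols in that table and 15045 genes that could be tested. All 38 could be tested. They were compared in liver RNA of 6 male mice, 6 to 8 weeks old, of which 3 were wild type controls and 3 were Dhx32-/- mutants. Dhx32 encodes an RNA helicase of the DEAH-box family, and the nature of the mutated allele and the background strain are not given in the sources used here. Liver pieces had been snap frozen, and each RNA was hybridised to an exon-level array, which reads most exons of a gene through probe sets of their own. The labels number the samples within a group and do not say that they came from separate litters or days, so the p-values below measure the spread between these samples only.

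As background, a collagen molecule is wound from 3 alpha chains, which may be products of different genes, and each chain repeats a glycine at every turn of the helix. In liver, hepatic stellate cells and portal fibroblasts make most of the fibrillar collagens of types I, III and V. Sinusoidal endothelial cells lie on a sparse matrix with type IV, and hepatocytes are a known source of type XVIII. Fibrosis is an excess of the fibrillar types. Chains are hydroxylated and folded in the endoplasmic reticulum, trimmed by proteases outside the cell, crosslinked by lysyl oxidases, bound by integrins and discoidin domain receptors, and degraded by metalloproteinases and cathepsin K.

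Dhx32 itself read 8.28, 8.85 and 8.62 on the log2 scale in the 3 controls and 6.35, 6.60 and 7.04 in the 3 mutants, a difference of -1.92 (SE 0.23; adjusted p = 0.183 in limma). Every mutant lay below every control. The labels give the genotype and no RNA level. Hepatocyte markers identified the tissue, with control means of 11.3 to 14.0 for the 8 of 10 listed genes that were measured. Array medians ran from 6.73 to 6.95, and mutant replicate 1 stood apart, with correlations of 0.935 to 0.940 with the other arrays, where other pairs reached 0.973. Probe sets differ in how strongly they bind, so signals are compared between arrays and not between genes, and a mid-range signal is not evidence of expression: Col2a1, the main collagen of cartilage, read 6.75 ± 0.04 (SD, n = 3) in control livers. A gene's value is the mean over the probe sets whose log2 signal averaged 3 or more in either group. Among collagens 1592 probe sets met this minimum. The nearest on its inner side was 5470040 of Col4a4, at 3.02 in its higher group, and the nearest on its outer side was 4365321 of Col11a1, at 2.99.

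Collagen signals as a whole differed little between mutant and control livers. Since a mid-range signal is not evidence of expression, the counts below may include genes that these livers do not express. None of the 38 genes passed the adjusted threshold of 0.05 in limma, a linear model with shared variance estimates, where 0.00665% of all genes tested passed. The smallest adjusted p among collagens was 0.943. At an unadjusted p under 0.05 there were 2 collagens, or 5.26%, against 4.21% of all genes: Col12a1 was higher and Col14a1 lower in mutants. Mean signal was higher in mutants for 26 of the 38 and lower for 12, against 47.5% higher among all genes. The median difference, mutant minus control, was 0.06, against -0.01 for all genes. That median is about as large as the spread of the same median between arrays of a group, an SD of 0.06. Groups did not overlap in 3 collagens, or 7.89%, against 9.47% of all genes. With 3 arrays a group, the smallest two-sided p that an exact permutation test allows is 0.1.

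**Figure D1:**
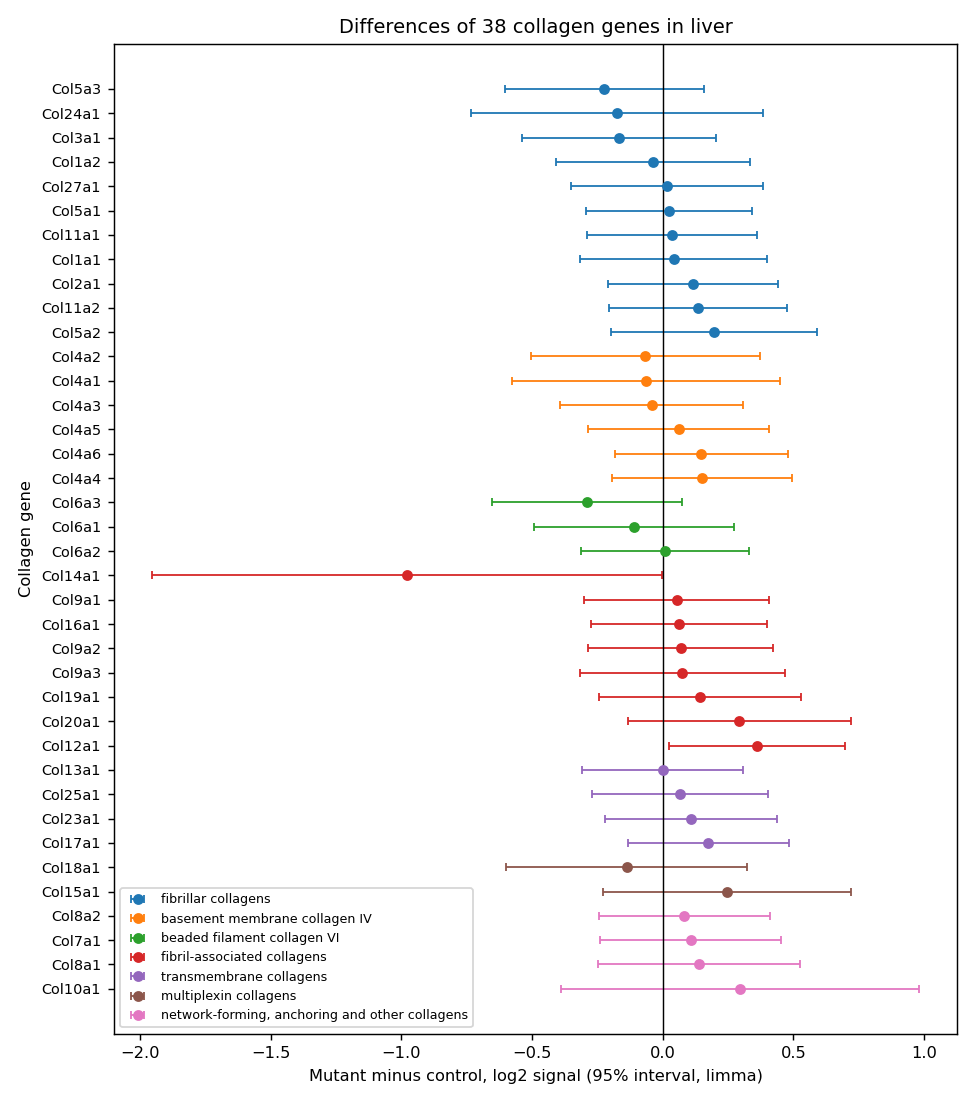
Difference between mutant and control means for each of the 38 collagen genes in log2 signal (horizontal axis), with 95% intervals from limma, coloured by structural class. Most points lie between -0.3 and 0.3 with intervals across 0; Col14a1, at -0.98, lies farthest from 0 and has the widest interval.

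The fibrillar collagens of liver did not separate the groups. Col1a1, which encodes the main chain of type I collagen, read 7.03, 7.21 and 7.05 in controls and 7.29, 7.18 and 6.95 in mutants. The groups overlapped, and the difference was 0.04 (95% interval -0.32 to 0.40). Its partner chain Col1a2 read 7.02, 7.42 and 7.04 in controls and 7.17, 7.08 and 7.11 in mutants, a difference of -0.04 (-0.41 to 0.33). Col3a1, the single chain of type III collagen, read 7.11, 7.40 and 6.96 in controls and 7.02, 6.98 and 6.97 in mutants. Control replicate 2 was the highest array for Col1a2 and Col3a1, and the mutants lay inside or at the low end of the control range. For Col3a1 the difference was -0.17 (-0.54 to 0.20), and 31 of its 49 probe sets had the lower mean in mutants, against 53.2% of all probe sets. Without control replicate 2 the Col3a1 difference was -0.046.

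The bases before the starts of Col1a2 and Col3a1 are shown as examples of genes with their highest value on control replicate 2. That array was the highest for 9 of the 38 collagens, so the trait is not particular to this pair. The sequences are from RefSeq on build GRCm38.p6, whereas the arrays' processing notes name mm9, and each holds the 250 bases upstream of the annotated start, 5′ to 3′ on the gene's strand. Col1a2 lies at chr6:4505368-4505617 on the plus strand and Col3a1 at chr1:45311288-45311537 on the plus strand. Capitals mark 3 motifs, each searched on both strands. One is CCAAT, which the factor NF-Y is known to bind. Another is the GC box GGGCGG. The last is the TATA box, written TATAAA.
Col1a2: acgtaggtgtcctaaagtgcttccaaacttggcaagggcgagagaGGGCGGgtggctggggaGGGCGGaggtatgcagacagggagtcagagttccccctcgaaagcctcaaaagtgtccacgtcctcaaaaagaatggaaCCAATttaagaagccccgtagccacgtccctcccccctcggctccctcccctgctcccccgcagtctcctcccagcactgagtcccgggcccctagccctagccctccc
Col3a1: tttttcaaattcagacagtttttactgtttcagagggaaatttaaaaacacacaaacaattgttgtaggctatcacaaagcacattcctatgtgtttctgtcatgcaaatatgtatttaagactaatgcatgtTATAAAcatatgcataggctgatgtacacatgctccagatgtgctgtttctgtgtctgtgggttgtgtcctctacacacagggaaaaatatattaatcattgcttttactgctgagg
The Col1a2 window held 1 CCAAT, whose first base lies 109 bases before the start, and 2 GC boxes, 205 and 188 bases before it. In Col3a1 there was 1 TATAAA, 117 bases before the start, and no other match. The window of Col6a3, also highest on control replicate 2, held no match to any of the 3 motifs. Promoter windows were found for 31 of the 38 collagens, 34 windows in all. CCAAT was present in 35.3% of these windows and 33.8% of all windows in the table, GGGCGG in 55.9% and 32.7%, and TATAAA in 14.7% and 12.4%. These are matches of letters, not measured binding.

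Type V collagen, which copolymerises with type I and limits fibril width, was also close between groups. Col5a1 differed by 0.02 (-0.29 to 0.34) and had the narrowest spread of the type V chains, with values of 6.72 to 6.90 in controls and 6.80 to 6.86 in mutants. Col5a2 read 5.73, 5.77 and 5.74 in controls and 5.93, 6.21 and 5.68 in mutants. Mutant replicate 3 thus lay below all controls and the other 2 mutants above them, with a difference of 0.20 (-0.20 to 0.59). It was 0.062 without mutant replicate 2 and 0.33 without mutant replicate 3. Within Col5a2, probe set 5244103 read 6.56, 6.80 and 6.08 in controls and 7.92, 7.96 and 7.25 in mutants, without overlap. Col5a3, the third type V chain, was among the 3 collagens with the lowest differences, at -0.22 (-0.60 to 0.16). Its values were 6.96, 7.35 and 7.07 in controls and 6.83, 7.06 and 6.81 in mutants. Probe set 4855684 of Col5a3 read 7.24, 7.33 and 7.42 in controls and 6.29, 6.59 and 6.41 in mutants. Of 65 kept Col5a3 probe sets 46 had the lower mutant mean, and in 8 every mutant lay below every control, against 4.44% of all probe sets. Without control replicate 2, the highest array for Col5a3, the gene difference was -0.11. The dim minor fibrillar gene Col24a1, represented by 4 probe sets, read 3.73, 4.49 and 4.08 in controls and 3.55, 4.16 and 4.07 in mutants. It had the third largest SD over the 6 arrays of any collagen, 0.33, and the groups overlapped. Over the 11 fibrillar genes, 7 were higher and 4 lower in mutants, the median difference was 0.02 and none reached an unadjusted p under 0.05. Their differences ran from -0.22 to 0.20, and those of Col2a1, Col11a1, Col11a2 and Col27a1, mostly genes of cartilage, lay inside that range.

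**Figure D2:**
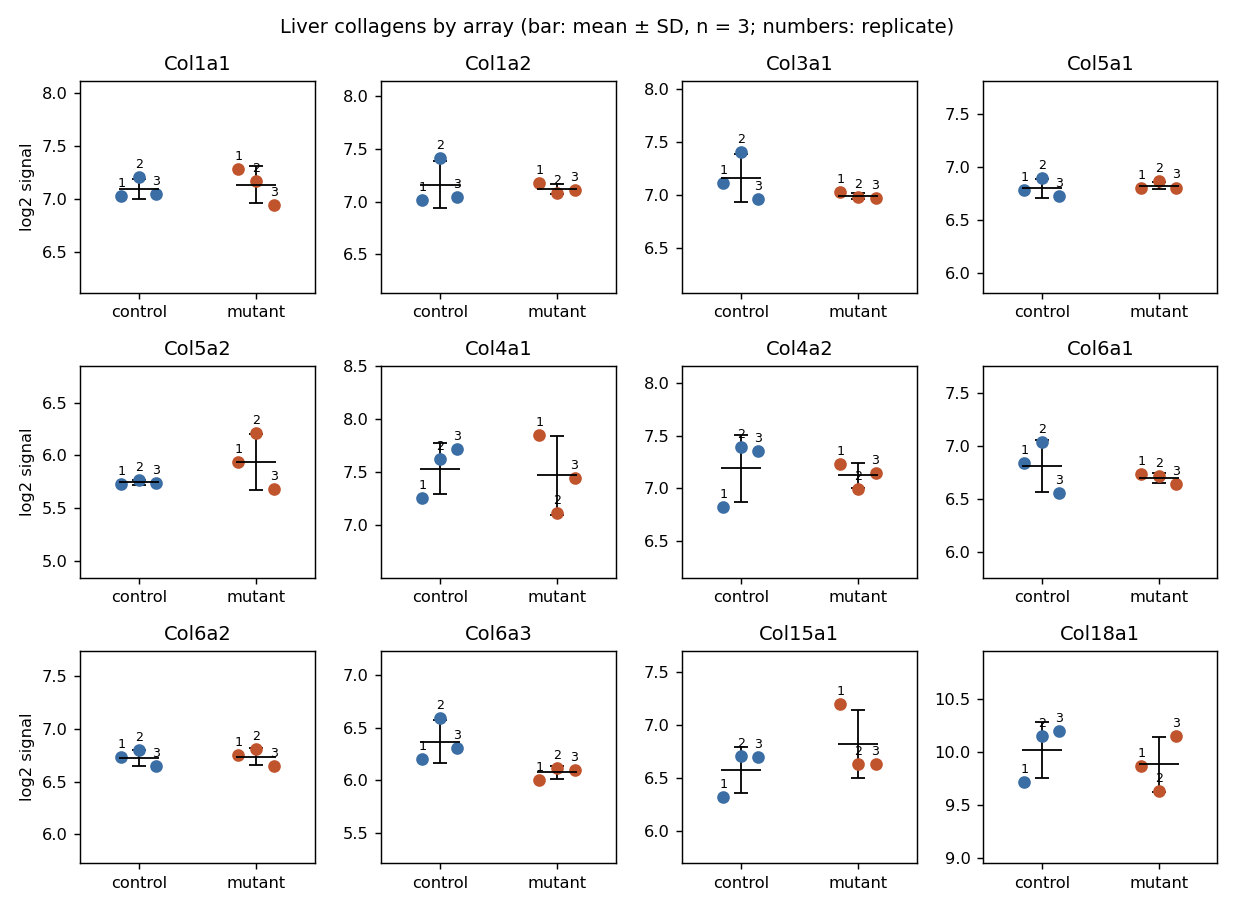
Log2 signal of 12 collagens of liver on each array, with the replicate number at each point and the group mean ± SD (n = 3). Every vertical axis spans 2 log2 units; in 11 of the 12 genes the groups overlap, and in Col6a3 the 3 mutants lie below the 3 controls.

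Type IV collagen forms the sheet of basement membranes, and its main chains Col4a1 and Col4a2 lie head to head on chromosome 8. Their 300-base promoter windows in the RefSeq table share 78 bases. Col4a1 read 7.26, 7.62 and 7.72 in controls and 7.85, 7.11 and 7.45 in mutants. Col4a2 read 6.82, 7.39 and 7.35 in controls and 7.23, 6.997 and 7.14 in mutants. Both chains were lowest among controls in replicate 1 and lowest among mutants in replicate 2, and the groups overlapped. The differences were -0.06 (-0.58 to 0.45) for Col4a1 and -0.07 (-0.51 to 0.37) for Col4a2. With 1 array left out, Col4a1 ran from -0.26, without mutant replicate 1, to 0.11, without mutant replicate 2. The mean of 10 sinusoidal endothelial markers was lowest on the same 2 arrays, at -0.26 from the control mean in control replicate 1 and -0.54 in mutant replicate 2, and lay between -0.07 and 0.29 on the others. Its members were not uniform. Control replicate 1 was the lowest control for 8 of the 10, and mutant replicate 2 the lowest mutant for 7, while Stab2, Kdr and Tek were lowest of the mutants in replicate 1. Control replicate 1 and mutant replicate 2 were also the closest pair of arrays over all probe sets, with a correlation of 0.973. Likeness between these 2 arrays is thus not limited to the genes given here. Lyve1, a hyaluronan receptor, had the widest range, at -1.26 in control replicate 1, 0.89 in mutant replicate 1 and -1.59 in mutant replicate 2. Clec4g stood at 1.001 in mutant replicate 1, and Kdr and Tek at -0.060 and -0.011 in control replicate 1. Macrophage markers lay at -0.37 and -0.27 on these 2 arrays. The part of these cells in the collagen values was not tested, and in a whole-liver RNA sample fewer cells of a type and less RNA per cell cannot be told apart. Col4a3 to Col4a6, the chains of specialised basement membranes such as those of kidney and lung, had differences of -0.04 to 0.15. The class had 3 genes higher and 3 lower, with a median of 0.01, and none reached an unadjusted p under 0.05.

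Type VI collagen, which forms beaded filaments around cells, had 1 chain lower in all mutants. Col6a3, its longest chain, read 6.20, 6.59 and 6.30 in controls and 6.01, 6.12 and 6.10 in mutants. The groups did not overlap, but the gap between the lowest control and the highest mutant was small beside the spread of the controls, and the difference of -0.29 (SE 0.16, 95% interval -0.65 to 0.07) did not pass (adjusted p = 0.943 in limma). It was -0.18 without control replicate 2. Of 37 kept probe sets of Col6a3, 26 were lower in mutants. Its partner chains gave no such separation: Col6a1 read 6.83, 7.04 and 6.55 in controls and 6.74, 6.72 and 6.64 in mutants. The difference for Col6a1 was -0.11 (-0.49 to 0.27), and -0.0012 without control replicate 2. Col6a2 differed by 0.01 (-0.31 to 0.33), with values of 6.65 to 6.80 in both groups.

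The lowest difference of any collagen was that of Col14a1, on chromosome 15, which encodes a fibril-associated collagen that binds decorin and sits on the surface of type I fibrils. It read 8.54, 9.39 and 9.15 in controls and 7.10, 8.16 and 8.88 in mutants. Mutant replicate 1 was far below every control, mutant replicate 2 was below every control, and mutant replicate 3 lay inside the control range. Group means were 9.02 ± 0.44 and 8.05 ± 0.90 (SD, n = 3), a difference of -0.98 (SE 0.42), or 1.97-fold lower. In limma the unadjusted p was 0.0496 and the adjusted p = 0.943, so the gene did not pass, and its 95% interval ran from -1.95 to -0.0021. Without mutant replicate 1 the difference was -0.50, and without mutant replicate 3 it was -1.40 (adjusted p = 0.552 in limma, the lowest of any setting tried). The unadjusted p was above 0.05 without any one of control replicates 2 and 3 and mutant replicates 1 and 2.

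Every part of the Col14a1 transcript that the array reads showed the same sign. All 47 probe sets had a lower mean in mutants, where 53.2% of all probe sets did, and their differences ran from -1.59 to -0.03 with a median of -1.04. At an unadjusted p under 0.05 there were 13, all lower, where 2.18% of all probe sets were. Probe sets of a gene share the same RNA, so these are not separate comparisons. Every mutant lay below every control in 4 of the 47, against 4.44% of all probe sets, and these are named here after their values were seen: 5139370, 5277016, 4902420 and 4999935. Probe set 4999935 had the largest difference, with 7.81, 8.42 and 8.01 in controls and 4.20, 7.47 and 7.79 in mutants. Probe set 5139370 read 9.59, 10.1 and 10.02 in controls and 8.44, 8.85 and 9.28 in mutants.

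**Figure D3:**
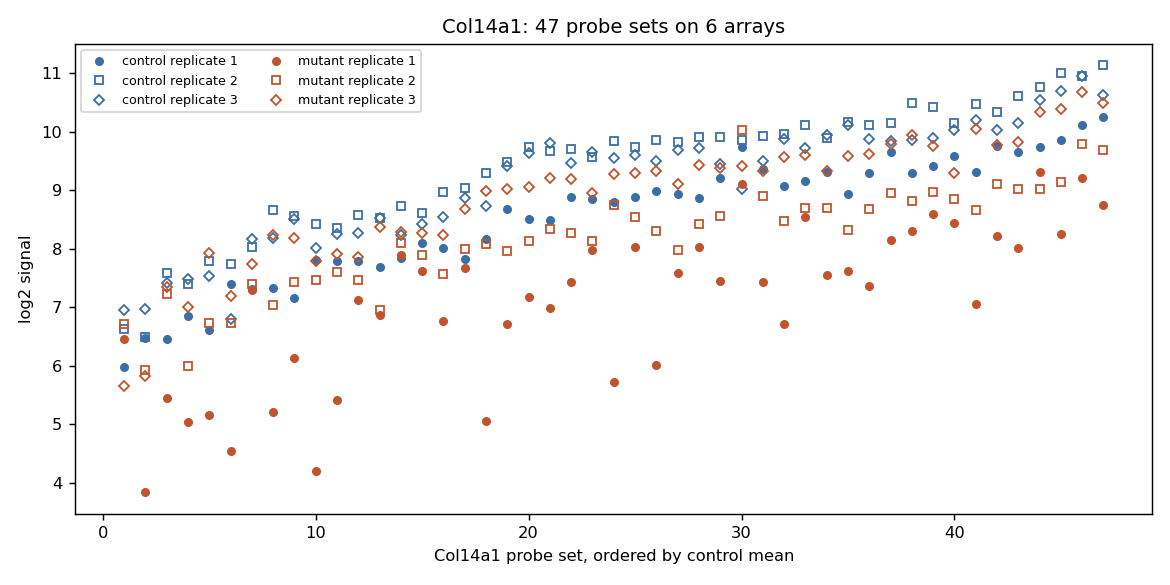
Log2 signal of the 47 probe sets of Col14a1 on each of the 6 arrays (vertical axis), ordered by their control mean (horizontal axis); blue symbols are controls and orange symbols mutants. Filled orange circles are mutant replicate 1, at 4.20 where the controls read 7.81 to 8.42 (probe set 4999935). Their lowest value is 3.84, where the controls read 6.47 to 6.97 (probe set 5277016). Open squares are replicates 2 and open diamonds replicates 3, and all 47 differences of means are below 0.

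Most stellate cell markers were lowest on the array where Col14a1 was lowest. Relative to the control mean, Col14a1 stood at -1.93, -0.86 and -0.14 in mutant replicates 1, 2 and 3. Averaged over the 10 measured of 12 listed stellate markers, the same arrays stood at -0.76, -0.31 and 0.06, and the controls ranged from -0.13 to 0.08. Reln, an extracellular matrix glycoprotein made by stellate cells, stood at -1.89, -0.65 and -0.24, and Lrat, which esterifies their stored retinol, at -1.61, -0.98 and 0.05. Ecm1 stood at -1.52, -0.67 and 0.12, and Dcn, the proteoglycan decorin, at -1.67, -0.49 and -0.29. Not all markers moved this way: Des and Hand2 were highest of the mutants in replicate 1, at 0.25 and 0.24, and Ngfr stood at -0.0041 there. Of the 10 markers 7 were lowest of all arrays in mutant replicate 1, as were 4936 of all 15045 genes. By group mean, 8 of the 10 were lower in mutants and 2 higher, and the median difference was -0.15. Among all genes 47.5% were higher. Dcn and Reln, both lower, reached an unadjusted p under 0.05, as did 2.20% of all genes in that direction. Acute phase genes were highest in mutant replicate 1, with 9 measured genes at 2.55, 1.22 and 0.69 in the 3 mutants and -0.17 to 0.14 in controls. What part stellate cell content or the acute phase has in the Col14a1 values was not tested. Other collagens known from stellate cells, Col1a1, Col1a2 and Col3a1, stood at 0.19, 0.015 and -0.14 in mutant replicate 1.

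**Figure D4:**
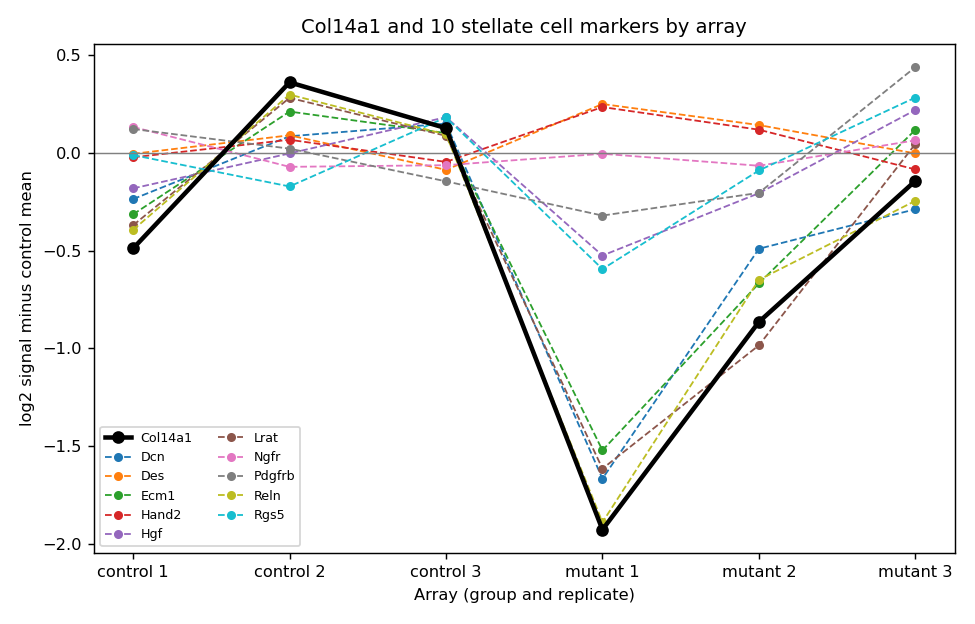
Log2 signal relative to the control mean (vertical axis) of Col14a1 (black) and 10 stellate cell markers (dashed) on each array; lines join the values of a gene and the replicates have no order. Col14a1 reaches -1.93 in mutant replicate 1, with Reln, Dcn, Lrat and Ecm1 between -1.89 and -1.52, and Des and Hand2 above 0 on that array.

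Col12a1, like Col14a1 a fibril-associated collagen, differed the other way. It read 5.05, 4.85 and 4.85 in controls and 5.34, 5.16 and 5.34 in mutants, without overlap. The difference of 0.36 (SE 0.15, 95% interval 0.02 to 0.70), or 1.28-fold, had an unadjusted p = 0.0387 and an adjusted p = 0.943 in limma, so it did not pass. Of 60 kept probe sets of Col12a1 47 had the higher mean in mutants, against 46.8% of all probe sets. In 13 every mutant lay above every control, against 4.01% of all probe sets, and in 2 below, against 4.44%. Among these 13, probe sets 5296434, 5478568 and 5112471 met the signal minimum only through their mutant mean. The first of them averaged 1.85 in controls and 3.46 in mutants. Probe sets 4380919 and 4750546, among the 47, did the same. Such probe sets could only be higher in mutants, and they also enter the gene mean. Probe set 5202033 met the minimum only through its control mean and could only be lower. Probe sets of a gene are not separate comparisons. With no signal minimum the difference of Col12a1 was 0.34, and it stayed between 0.31 and 0.42 over the settings tried. The unadjusted p was above 0.05 when control 2, control 3, mutant 1 or mutant 3 was dropped. It was also above 0.05 with medians of probe sets and with the replicate block, at 0.0602 and 0.0657 in limma. Col20a1, a fibril-associated collagen measured by 7 probe sets, differed by 0.29 (-0.13 to 0.72), with 7.22, 6.79 and 6.95 in controls and 7.44, 7.39 and 7.004 in mutants. Control replicate 1 lay above mutant replicate 3, so these groups overlapped, and the difference was 0.19 without control replicate 2 and 0.43 without mutant replicate 3. The other genes of the class, Col9a1, Col9a2, Col9a3, Col16a1 and Col19a1, had differences of 0.05 to 0.14. In all, 7 of the 8 fibril-associated genes were higher and 1 lower in mutants.

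Of the transmembrane collagens, the multiplexins and the network-forming and anchoring collagens, none reached an unadjusted p under 0.05 in limma, against 4.21% of all genes. Col17a1, the hemidesmosome collagen of epithelia, had narrow groups that did not overlap: 5.98, 6.04 and 6.05 in controls and 6.23, 6.20 and 6.17 in mutants. It is named here after its values were seen. The difference was 0.17 (SE 0.13, 95% interval -0.13 to 0.48) and the adjusted p = 0.943 in limma. The other transmembrane collagens, Col13a1, Col23a1 and Col25a1, differed by -0.00078 to 0.11, although probe set 4734159 of Col25a1 had the smallest p of any collagen probe set. That probe set read 4.64, 3.95 and 4.18 in controls and 5.59, 6.36 and 5.45 in mutants. Col18a1, the multiplexin whose fragment is endostatin, read 9.71, 10.2 and 10.2 in controls and 9.86, 9.63 and 10.2 in mutants, a difference of -0.14 (-0.60 to 0.32), or -0.014 without mutant replicate 2. Like Col4a1 and Col4a2 it was lowest in control replicate 1 among controls and in mutant replicate 2 among mutants. Col15a1, the other multiplexin, read 6.32, 6.70 and 6.70 in controls and 7.19, 6.63 and 6.63 in mutants. Its difference of 0.25 (-0.23 to 0.72) rested on mutant replicate 1 and was 0.07 without that array. Of the network-forming and anchoring genes, Col7a1, Col8a1, Col8a2 and Col10a1, all 4 were higher in mutants, with differences of 0.08 to 0.30. The highest of these, Col10a1, the collagen of growth plate cartilage, was measured by only 2 probe sets. It read 4.41, 4.49 and 4.28 in controls and 4.35, 4.28 and 5.44 in mutants, and without mutant replicate 3 the difference was -0.08.

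**Figure D5:**
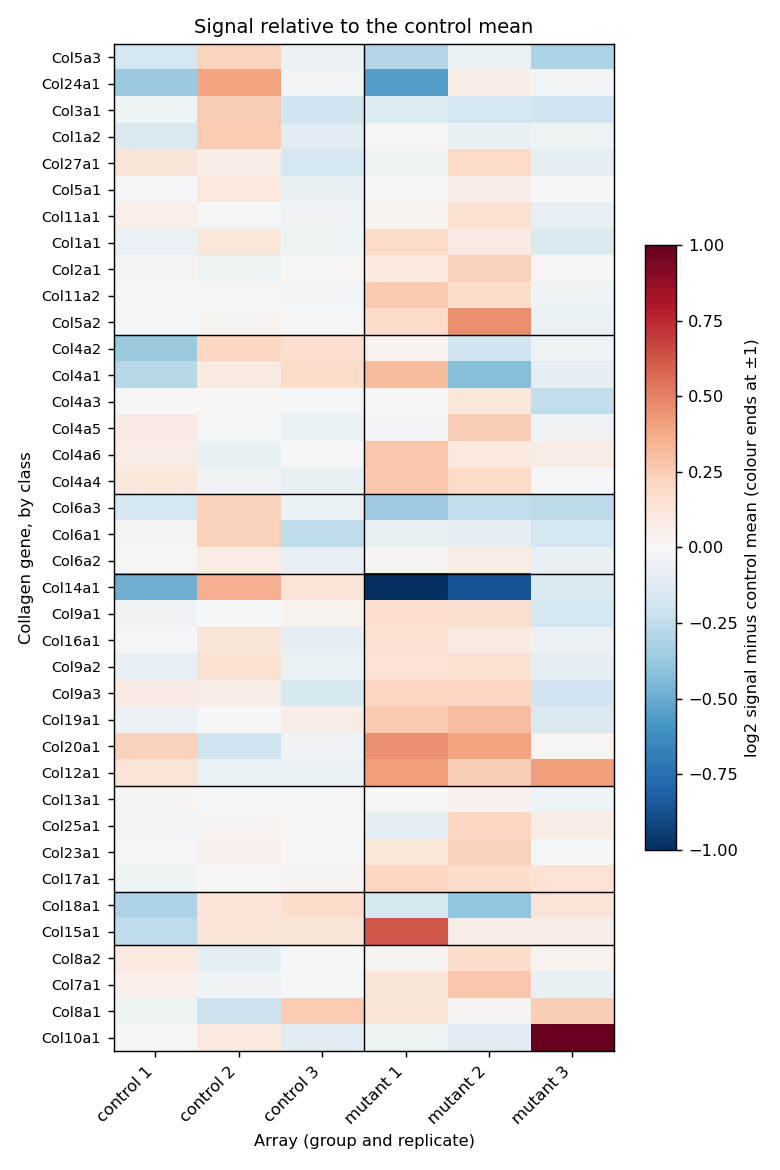
Log2 signal of the 38 collagen genes on each array relative to the gene's control mean, with classes divided by horizontal lines and groups by the vertical line. Colours end at ±1, so Col14a1 in mutant replicate 1 (-1.93) is deeper than shown; Col14a1 is the darkest blue row, and mutant replicate 2 is the highest array for 15 of the 38 genes.

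Across the arrays the mean over collagens moved little. Averaged over the 38 genes, controls stood at -0.05 to 0.07 from the control mean and mutants at 0.03, 0.06 and -0.02. Mutant replicate 2 was the highest array for 15 collagens, mutant replicate 1 for 10 and control replicate 1 for 0. Mutant replicate 3 was the lowest for 12 and control replicate 3 for 11. The matching count over all genes is given only for mutant replicate 1, the lowest array for 4 collagens and for 4936 of all 15045 genes. The other counts are therefore not read as a trait of collagens. The fibrillar class was highest in control replicate 2, at 0.12. Type VI genes were also highest there, at 0.18. They stood at -0.04 and -0.13 in control replicates 1 and 3 and between -0.17 and -0.09 in the mutants, so the groups overlapped. Col6a6 and Col26a1, listed on the array under older symbols and therefore not among the 38, differed by 0.30 (SE 0.20) and -0.02 (SE 0.16).

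Single exon readouts gave no collagen probe set that passed after adjustment. The smallest adjusted p of the 1592 was 0.994 in limma, and 0% of all probe sets passed. At an unadjusted p under 0.05 there were 92, or 5.78%, against 4.07% of all probe sets. Out of the 1592, 47 were higher at that p, against 1.90% of all probe sets, and 45 lower, against 2.18%. Col12a1 alone held 9 of the higher and Col14a1 13 of the lower, so the counts rest partly on these 2 genes. Among those 9 are 5296434 and 5478568, which met the signal minimum only through their mutant mean. The groups did not overlap in 156 collagen probe sets, or 9.80%, against 8.45% of all probe sets. The 5 of smallest p were those of Col25a1, Col5a2 and Col5a3 given above and 1 each of Col11a1 and Col9a1. Probe set 4428169 of Col11a1 read 3.12, 3.22 and 3.29 in controls, near the signal minimum, and 4.59, 3.95 and 4.31 in mutants. Probe set 4420425 of Col9a1 read 6.66, 6.87 and 6.64 in controls and 8.18, 7.48 and 7.72 in mutants. These 5 were chosen by their p, so that their groups do not overlap adds nothing.

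Exon usage, which asks whether single probe sets depart from their gene, could be tested in 37 collagens with at least 3 kept probe sets. None passed the F-test of limma's diffSplice, with an adjusted p = 1 for every collagen, and 0 reached an unadjusted p under 0.05, where 0.210% and 4.0% of the 14310 genes tested did so. The Simes form of the test also called 0 collagens. Col6a2, Col11a1 and Col4a3 had the smallest unadjusted p in the F-test, 0.05002, 0.0579 and 0.0883. In Col6a2, probe set 5510219 differed by -0.74 while the gene mean differed by 0.01. It read 6.62, 6.003 and 6.54 in controls and 5.81, 5.88 and 5.26 in mutants. In Col4a3, probe set 5570229 read 4.48, 5.20 and 5.57 in controls and 2.60, 4.87 and 3.60 in mutants, with overlap.

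Genes that make, bind, cut or surround collagen were examined through 5 lists of pathway genes, of which 80 genes were measured. Measured of listed were 25 of 32 for synthesis and crosslinking, 7 of 10 for receptors and 12 of 12 for breakdown. For other matrix they were 17 of 20, and for TGF-beta 19 of 20. None of the 80 genes passed after adjustment in limma. At an unadjusted p under 0.05 there were 0 higher, against 2.01% of all genes, and 2 lower, against 2.20%; 29 of the 80 were higher and 51 lower by mean, and the median difference was -0.11. Both of the lower genes belonged to the other matrix of fibrils and basement membranes, where 4 of 17 were higher, 13 lower and the median was -0.23. Postn, which encodes the matricellular protein periostin, read 5.87, 7.02 and 7.07 in controls and 5.14, 5.40 and 6.26 in mutants, a difference of -1.06 (SE 0.39). Control replicate 1 lay among the mutants. Dcn, which is on the stellate list too, read 11.4, 11.7 and 11.8 in controls and 9.97, 11.1 and 11.3 in mutants, without overlap, and differed by -0.81 (SE 0.34; -0.39 without mutant replicate 1). Lamb1, a laminin chain, differed by -0.47 (SE 0.22; -0.25 without mutant replicate 1). The list stood at -0.51, -0.26 and 0.04 in mutant replicates 1, 2 and 3, the array order also seen for Col14a1. That rising order was found in 4381 of all 15045 genes. It also held for the means of the TGF-beta and receptor lists, but not for those of synthesis or breakdown.

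Collagen synthesis and crosslinking genes were balanced, with 12 of 25 higher and 13 lower, a median of -0.04 and none at an unadjusted p under 0.05. Mutants and controls were fully apart in 7, or 28.0% of the 25, where 9.47% of all genes were. P4ha1 and P4ha2, catalytic subunits of prolyl 4-hydroxylase, were 2 of the 4 higher ones. P4ha1 read 7.67, 7.75 and 7.83 in controls and 7.84, 8.09 and 8.13 in mutants, and P4ha2 differed by 0.30 (SE 0.15). P4hb, their shared subunit and a disulfide isomerase, differed by 0.14 (SE 0.13), and the prolyl 3-hydroxylase P3h1 by 0.44 (SE 0.24; 0.16 without mutant replicate 1). The 3 lower ones were Pcolce, an enhancer of procollagen cleavage, at -0.27 (SE 0.15), P3h4 at -0.22 (SE 0.14) and the lysyl oxidase Loxl1 at -0.20 (SE 0.14). P4ha1, P4hb, P3h4 and Loxl1 are named here after their values were seen.

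Receptors for collagen had 4 of 7 genes higher and 3 lower, with differences of -0.22 to 0.12. The integrin chain Itgb1 differed by -0.22 (SE 0.19; -0.062 without mutant replicate 1), the discoidin receptor Ddr1 by 0.12 (SE 0.14) and the uptake receptor Mrc2 by 0.11 (SE 0.14). Among 12 genes of collagen breakdown 5 were higher and 7 lower, with a median of -0.13. Mmp8, the neutrophil collagenase, differed by 0.60 (SE 0.44; 0.036 without mutant replicate 1) and stood at 5.66 in mutant replicate 1 against 3.71 to 3.99 on the other arrays. Neutrophil markers were highest on the same array, at 0.73 over 8 genes, and their part in the Mmp8 value was not tested. The protease genes Ctsk and Fap differed by 0.32 (SE 0.22) and -0.23 (SE 0.18). Ctsk was 0.55 without control replicate 1, and Fap -0.39 without mutant replicate 1 and -0.051 without mutant replicate 3. Of 19 genes of TGF-beta signalling, the pathway that induces fibrillar collagens, 4 were higher and 15 lower, with a median of -0.13. The repressor Skil differed by 0.63 (SE 0.30; 0.37 without mutant replicate 1), the latent TGF-beta binding protein Ltbp4 by -0.54 (SE 0.26; -0.33 without mutant replicate 1) and the signal transducer Smad4 by -0.29 (SE 0.18; -0.45 without mutant replicate 3). Without mutant replicate 3 the number of pathway genes at an unadjusted p under 0.05 was 10. It was 6 without control replicate 1 and 0 without control replicate 2 or control replicate 3. The shares of all genes at that p were then 9.001%, 6.43%, 2.15% and 2.15%, so the baseline moved as well.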

How the data were processed

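The deposited values are log2 signals of 204531 probe sets on 6 arrays, made by the authors; per the submitters' processing notes, Affymetrix Expression Console 1.1, RMA, Partek 6.4 and build mm9 were involved, with no roles given. RMA normalizes by quantiles and compresses differences of dim probe sets. The deposited probe sets were nonetheless not aligned between arrays, with medians of 6.73 to 6.95. Gene names came from the platform table (185264 probe sets with 1 symbol, 3488 with several, 15779 not listed); older symbols were replaced through unique RefSeq synonyms, except that collagens were chosen by the table's own symbol. Probe sets with a group mean of 3 or more were kept and averaged over genes with at least 2. Mutant minus control was fitted with limma 3.58.1 in R 4.3.3 (lmFit, eBayes, diffSplice), with Benjamini-Hochberg adjustment over all 15045 genes, 191663 probe sets or 14310 genes for exon usage. Fold values are powers of 2 of log2 differences. The steps were tested on simulated data.

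Collagens named were those known from liver, those at an unadjusted p under 0.05, the 3 largest differences in each direction and the 3 largest SDs; probe sets, exon usage and pathway genes were named by smallest p (5, 3 and 3 per list). The collagen genes and the lists were chosen with earlier results of these data known. Alternatives were other signal minimums (none, 5), quantile normalization, median centring, medians of probe sets, a trended robust prior, a replicate block, Simes adjustment and leaving out each array.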

Additional observations from a re-analysis of the deposited data

How the results depend on the processing

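No collagen gene passed the adjusted threshold, for expression or exon usage, under any of the 13 alternatives to the expression fit, nor in exon usage with the Simes form. The numbers of collagen probe sets at an unadjusted p under 0.05 stayed within 1.5 times the 92 reported. The number of collagens higher in mutants ran from 22 to 28 with 1 array left out, where 43.3% to 54.5% of all genes were higher. That number was 28 with quantile normalization, 29 with median centring and 22 with medians of probe sets. The shares of all genes higher were then 53.7%, 55.8% and 47.5%, so the baseline moves with the processing. The number of collagens at an unadjusted p under 0.05, 2 as reported, was 1 with medians of probe sets and 1 with the replicate block (Col12a1 lost in both) and 0 to 2 with 1 array left out (0 when control replicate 2, control 3 or mutant 1 was dropped). For the 80 pathway genes that number, 2 as reported, was 4 with a signal minimum of 5 and 4 with quantile normalization. It was 6 with medians of probe sets, 6 with the replicate block and 0 to 10 with 1 array left out. The shares of all genes at that p were then 4.497%, 4.84%, 4.37%, 5.94% and 2.15% to 9.001%, against 4.21% as reported. Of the 19 collagens named by gene mean, 10 kept their sign throughout, with Col14a1 between -1.40 and -0.50. Col1a2 changed sign with quantile normalization (0.0055), median centring (0.0072) and medians of probe sets (0.016), Col1a1 (-0.020), Col5a2 (-0.069), Col6a2 (-0.052) and Mrc2 (-0.052) with medians of probe sets, and Fap (0.049) with a signal minimum of 5. With 1 array left out the differences ran from -0.034 to 0.14 for Col1a1, -0.11 to 0.091 for Col1a2, -0.021 to 0.074 for Col5a1, -0.26 to 0.11 for Col4a1, -0.25 to 0.035 for Col4a2, -0.029 to 0.053 for Col6a2, -0.36 to 0.023 for Col24a1 and -0.080 to 0.50 for Col10a1; the cause was not tested. Deviations of same-numbered arrays from their group means correlated at 0.0981, -0.108 and 0.176 over all genes, so the numbers were not taken to pair the mice, and the replicate block gave Col14a1 an adjusted p = 0.555 in limma. Arrays give no depth; 3 per group and dim signals near 3 limit what could be seen.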
